A study of Mus musculus with 11 samples.

Results

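A set of 58 genes, of the 21684 genes in the table, stood at least 3-fold higher in every knockout library than in wild-type (WT) cells. The members were chosen by their CPM, a gene's count divided by the library total and scaled to 1000000. A gene was taken when its CPM in each of the 9 knockout libraries was at least 3 times the larger WT value plus 0.1 CPM, and was itself at least 1 CPM. Of the 10803 genes with at least 1 CPM in all 9 knockout libraries, only these passed, and all 58 were among the 13332 genes that passed the count filter for testing. Because the measured difference from WT chose them, that difference is described below without a test, and the tests compare the knockout lines with one another.

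The cells were NIH/3T3, an established line of mouse embryonic fibroblasts, and the study asked which genes Xap5, Nono and Sox5 control while the cells grow a primary cilium, the antenna-like organelle that quiescent cells raise. RNA-seq covered 4 genotypes: 2 libraries of WT cells and 3 each of cells labelled Xap5 KO, Nono KO or Sox5 KO. All groups were plated sparsely, kept for 24 h in DMEM with 10% calf serum and then starved in DMEM without serum for another 24 h. The labels name no clones and do not say how the genes were disrupted, so each knockout is treated as 1 line whose libraries share their history; the effect of a gene and the history of its line cannot be told apart, and p-values measure the spread between libraries, which may be technical. Xap5 is the older name of Fam50a, a nuclear protein linked to splicing. Nono is an RNA-binding protein of nuclear paraspeckles, and Sox5 is a transcription factor of the SoxD group.

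Library depth ran from 30205878 to 43498383 counts. Fam50a RNA was at 7.52 to 8.21 CPM in the Xap5 KO libraries against 66.8 to 69.1 CPM in WT, and Nono RNA was at 26.2 to 32.4 CPM in Nono KO against 373 to 381 CPM in WT. Sox5 RNA was at 12.4 to 13.7 CPM in Sox5 KO against 48.8 to 53 CPM in WT, but it was also at 12.4 to 15.5 CPM in Xap5 KO and 6.69 to 8.33 CPM in Nono KO. The fibroblast label was checked on Col1a1 and Col1a2, the chains of type I collagen, which stood at no less than 1121 and 3233 CPM in every library. Both belong to a list of 16 fibroblast genes, of which the 1 member, Fap, was at 0 and 0.145 CPM in WT. Of the other 15, edgeR called 4, 11 and 8 higher than WT in the Xap5, Nono and Sox5 knockouts. The shares of all tested genes were 23.2%, 23.5% and 30.6%. Those called lower numbered 6, 0 and 5, against 22.3%, 25.1% and 30.3%. Markers of epithelium summed to at most 0.476 CPM and those of lymphocytes to at most 0.896 CPM in any library. Endothelial markers summed to 15.9 to 18.8 CPM in WT, 36.4 to 39.4 in Xap5 KO, 5.05 to 8.63 in Nono KO and 10.1 to 13.3 in Sox5 KO, and chondrocyte markers to 368.4 to 371.1 CPM in WT and 109 to 202 CPM in the knockouts.

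Fibroblasts deprived of serum normally leave the cell cycle and keep a modest output of matrix and contractile proteins. When fibroblasts turn into myofibroblasts they build smooth muscle actin fibres and secrete matricellular proteins, which adjust cell adhesion and growth factor access rather than bear load. Genes of both kinds were among the 58, together with secreted hormones and growth factors, enzymes of lipid and xenobiotic metabolism, transporters and replication-linked histones.

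The 58 genes spanned a wide range of WT levels. In 23 of them the larger WT value was below 1 CPM, and in 16 it was above 10 CPM. Mmp3 and Stc1 had no count in either WT library, and Ms4a4d and Slc10a6 had at most 3. The lowest knockout library exceeded the larger WT value plus 0.1 CPM by a median of 5.63 times: by 10 times or more in 12 genes, by 5 to 10 times in 20 and by less than 5 times in 26. The genes just inside the threshold were Epha7 at 3.06 times, Slc40a1 at 3.08 and H2bc4 at 3.08, and those just outside it were Gadd45g at 2.97, Pde4b at 2.96 and Gfra2 at 2.94. All 58 were called higher than WT in all 3 knockouts by edgeR, a pattern called in 8.33% of all tested genes, but the rule used the same contrast, so nothing is read from that count. Of the 58, 56 matched the gene annotation, and all 56 were protein coding and lay on 18 chromosomes. Pairs of members within 100 kb of each other were H2bc4 with H1f2 and Olfml1 with Ppfibp2.

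**Figure D1:**
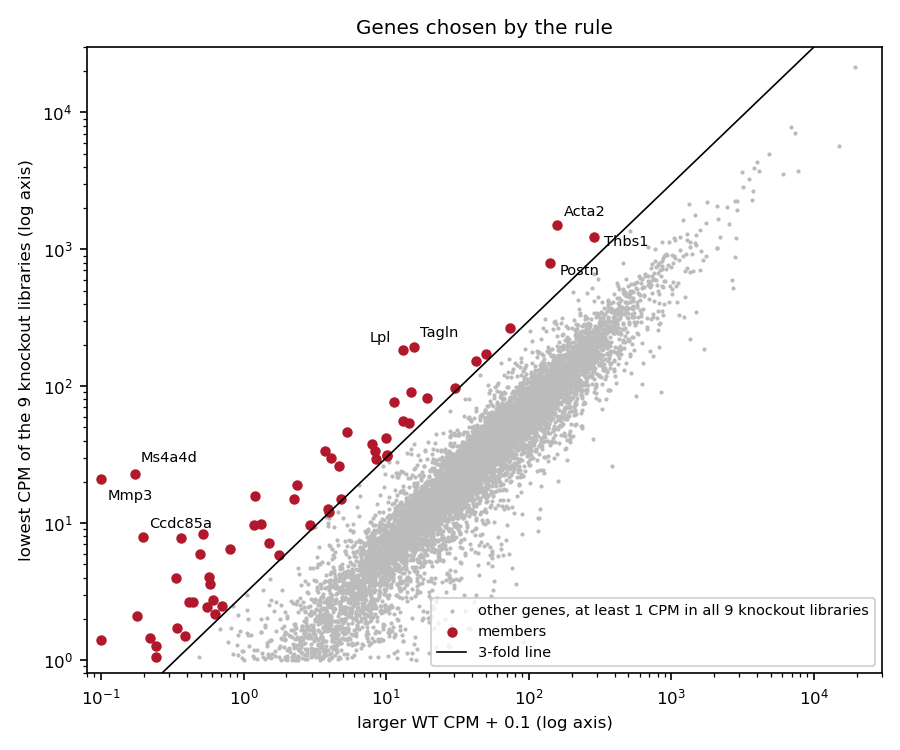
The lowest CPM among the 9 knockout libraries is plotted against the larger WT CPM plus 0.1, both on log axes, for genes with at least 1 CPM in every knockout library. The 58 members (dark red) lie on or above the 3-fold line; Mmp3 and Stc1, with no WT count, lie at the left edge, and Acta2, Thbs1 and Postn have the highest levels.

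The contractile members were Acta2 (smooth muscle alpha-actin), Actg2 (the gamma-actin of enteric smooth muscle), Tagln (transgelin, an actin-bundling protein), Myl9 (a regulatory light chain of myosin) and Lmod1 (leiomodin, which nucleates actin filaments). Acta2 was measured at 149 and 158 CPM in WT, at 1858, 1652 and 1517 in Xap5 KO, at 2032, 2249 and 1898 in Nono KO and at 2784, 2948 and 2644 in Sox5 KO. The knockout lines did not overlap, while their distance from WT was required by the rule. In bulk RNA, more cells making a transcript and more transcript per cell cannot be told apart. The line means were 10.9, 13.4 and 18.2 times the WT mean in the Xap5, Nono and Sox5 knockouts. Differences between lines are log2 fold changes of the first-named line against the second from edgeR's quasi-likelihood fit, with Benjamini-Hochberg adjustment over all tested genes and a call at an adjusted p under 0.05. Acta2 was lower in Nono KO than in Sox5 KO (log2 difference -0.39, SE 0.081, adjusted p = 0.000453) and lower in Xap5 KO than in either (log2 -0.41 against Nono KO and -0.80 against Sox5 KO), so its order was Sox5 KO, Nono KO, Xap5 KO.

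The other contractile genes had a different order, with Nono KO at the top. Tagln was at 14.5 and 15.5 CPM in WT, at 193, 196 and 209 in Xap5 KO, at 395, 407 and 301 in Nono KO and at 232, 233 and 223 in Sox5 KO. Myl9 was at 4.6 and 3.5 CPM in WT, at 31.2, 26.1 and 29.2 in Xap5 KO, at 76.5, 82.9 and 64.3 in Nono KO and at 40.9, 41.8 and 35.5 in Sox5 KO. In both genes each Nono KO library lay above every library of the other lines. Nono KO exceeded Sox5 KO by a log2 difference of 0.73 in Tagln (SE 0.086, adjusted p = 2.01e-06) and of 0.97 in Myl9 (SE 0.11, adjusted p = 1.65e-07). Xap5 KO was the lowest line for both, although its difference from Sox5 KO in Tagln (log2 -0.27, adjusted p = 0.0141) was not called without Sox5 KO replicate 2 (adjusted p = 0.0524) or when libraries were scaled by their totals (adjusted p = 0.0529). Tagln overlaps Pcsk7 on the opposite strand, so its count is uncertain if the counting ignored strand.

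Actg2 was at 0.397 and 0.265 CPM in WT, at 5.95, 9.77 and 9.82 in Xap5 KO, at 37.8, 40.0 and 36.1 in Nono KO and at 6.47, 6.22 and 6.77 in Sox5 KO. It showed the widest gap of the 5 genes, 5.86 times between the outer line means. Xap5 KO lay far below Nono KO (log2 difference -2.27, SE 0.15, adjusted p = 4.76e-11), and Nono KO lay far above Sox5 KO (log2 difference 2.60, SE 0.15, adjusted p = 3.87e-12). Xap5 KO and Sox5 KO did not differ at the threshold (log2 0.33, 95% interval 0.01 to 0.64, adjusted p = 0.0684), though they did without Xap5 KO replicate 1, the lowest Xap5 KO library (log2 0.51, adjusted p = 0.00154), and with scaling by library totals (adjusted p = 0.0386). Lmod1 was at 0.847 and 1.11 CPM in WT, at 20.1, 15.9 and 16.1 in Xap5 KO, at 40.3, 38.6 and 33.3 in Nono KO and at 23.3, 30.5 and 29 in Sox5 KO. All 3 of its lines were called apart: Nono KO was above Sox5 KO (log2 0.49, adjusted p = 0.00136) and Xap5 KO was below Sox5 KO (log2 -0.73, adjusted p = 3.04e-05). Acta2 and Actg2 encode closely similar actins, so the counting could have split reads between them.

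**Figure D2:**
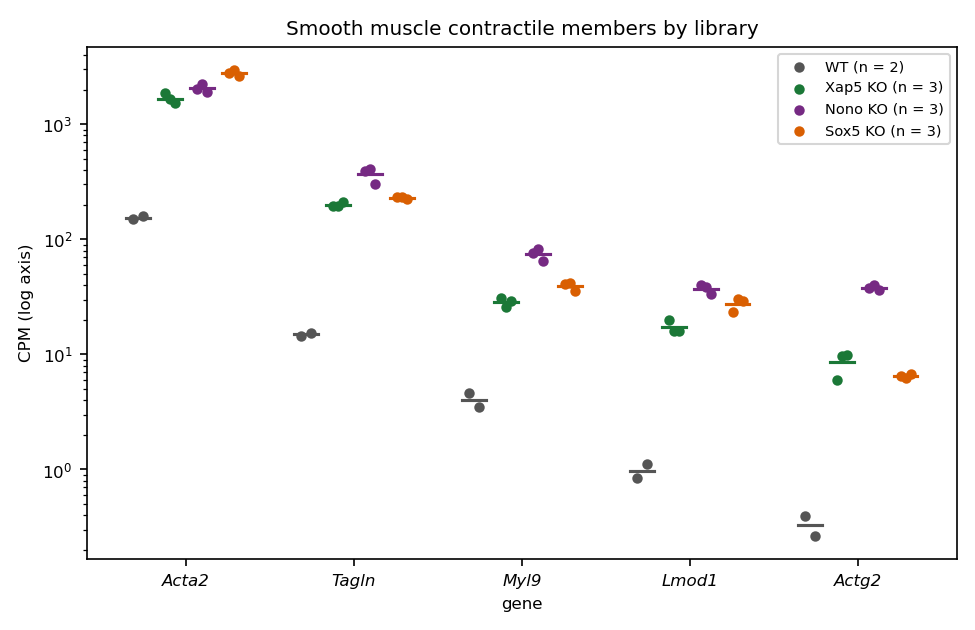
Each point is the CPM of 1 library on a log axis for the 5 smooth muscle contractile members; bars are group means over 2 WT or 3 knockout libraries. Every knockout library lies above both WT libraries, as the rule requires. Nono KO has the highest points in Tagln, Myl9, Lmod1 and Actg2, while Sox5 KO has the highest points in Acta2.

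The other tested smooth muscle and pericyte markers did not follow, except Cnn1 in Nono KO. The median log2 difference from WT of those that are no members was -0.68, 0.50 and -1.66 in the Xap5, Nono and Sox5 knockouts. Cnn1 (calponin), a marker of contractile smooth muscle, was at 0.212 and 0.121 CPM in WT, at 0.698, 0.326 and 0.431 in Xap5 KO, at 1.58, 2.05 and 1.52 in Nono KO and at 0, 0 and 0.0629 in Sox5 KO, and it was called higher than WT in Nono KO (log2 3.51, adjusted p = 0.00149) and lower in Sox5 KO, where 2 of the 3 libraries had no count (adjusted p = 0.0437). Myh11, the smooth muscle myosin heavy chain, stayed at or below 0.966 CPM in every library and was not called in any knockout. Kcnj8, a pericyte channel, was at 0 throughout. Of the 10 smooth muscle and pericyte markers 8 were tested, 3 of them members. Of the 5 that are no members, 0, 1 and 0 were called higher than WT in the Xap5, Nono and Sox5 knockouts, against 23.2%, 23.5% and 30.6% of all tested genes, and 2, 1 and 3 were called lower, against 22.3%, 25.1% and 30.3%. The summed level of the list was 340.1 and 358.4 CPM in WT and 1883 to 3277 CPM in the knockouts, where Acta2 made up most of it.

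CArG boxes, the sites bound by serum response factor in many contractile genes, were looked for in promoter windows from RefSeq (build GRCm38.p6; 250 bases before to 50 after the gene start, both strands). A CArG box is a pair of C, a run of A or T and a pair of G, and a CArG-like match allows 1 G or C within the run. This motif was chosen after the members were known. The strict form was present in 1.63% of all 32851 windows and the CArG-like form in 9.98%. The windows of Acta2 (chr19:34255324-34255623, minus strand) and Myl9 (chr2:156775214-156775513, plus strand) are shown because both hold CArG-like matches, set in capitals and printed 5′ to 3′ along the gene.
Acta2: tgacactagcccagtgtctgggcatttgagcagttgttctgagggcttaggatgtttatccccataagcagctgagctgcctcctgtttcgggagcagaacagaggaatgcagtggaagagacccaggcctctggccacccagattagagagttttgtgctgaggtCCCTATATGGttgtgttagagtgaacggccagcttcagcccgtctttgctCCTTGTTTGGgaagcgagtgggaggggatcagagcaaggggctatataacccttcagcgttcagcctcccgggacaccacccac
Myl9: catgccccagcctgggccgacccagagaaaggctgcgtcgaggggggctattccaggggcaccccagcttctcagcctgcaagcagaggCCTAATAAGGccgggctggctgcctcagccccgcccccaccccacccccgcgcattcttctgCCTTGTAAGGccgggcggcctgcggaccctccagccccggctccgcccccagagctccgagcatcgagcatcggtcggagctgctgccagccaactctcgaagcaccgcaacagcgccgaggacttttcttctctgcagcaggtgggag
The Acta2 matches CCCTATATGG and CCTTGTTTGG start 84 and 34 bases before the gene start. Those of Myl9, CCTAATAAGG and CCTTGTAAGG, start 161 and 99 bases before it, and CCTAATAAGG is a strict CArG box. The Lmod1 window held neither form, and no window was available for Tagln or Actg2. Windows of Gsta3, Rab3c and Igf2, members outside the contractile group, held CArG-like matches too, and an Igf2 window also held the strict form. The motif was therefore not particular to the contractile members. The table held windows for 37 of the 58 members (63.8%), under the 80% set for a comparison over the whole set, so none is made, and a match describes letters, not binding.

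Matrix members were Thbs1, Postn, Ccn1, Ccn4, Mfap5, Lama4 and Olfml1, and they split between Xap5 KO and Nono KO as the line with the highest level; none peaked in Sox5 KO. Thbs1 (thrombospondin 1, which activates latent TGF-beta and restrains angiogenesis) was at 285 and 271 CPM in WT, at 3414, 3419 and 3256 in Xap5 KO, at 1833, 1922 and 1765 in Nono KO and at 1220.3, 1353 and 1390.0 in Sox5 KO. The knockout lines did not overlap and stepped down from Xap5 KO to Nono KO (log2 difference 0.76, SE 0.06, adjusted p = 9.87e-10) and from Nono KO to Sox5 KO (log2 difference 0.53, SE 0.06, adjusted p = 1.27e-07). The line means were 12.1, 6.62 and 4.75 times the WT mean. Ccn1 (Cyr61, an integrin-binding matricellular protein) was at 50.3 and 41.6 CPM in WT, at 237, 242 and 257 in Xap5 KO, at 196, 200.4 and 172 in Nono KO and at 188, 182 and 184 in Sox5 KO. Its Xap5 KO libraries were the highest and exceeded Nono KO by a log2 difference of 0.26 (adjusted p = 0.00213), while Nono KO and Sox5 KO were not called apart (95% interval -0.05 to 0.22).

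Mfap5 (a microfibril-associated glycoprotein) had the same leading line as Thbs1 and Ccn1. It was at 9.92 and 13 CPM in WT, at 95.8, 91.4 and 82.6 in Xap5 KO, at 60.3, 56.9 and 60.2 in Nono KO and at 59.6, 57.6 and 55.8 in Sox5 KO, with Xap5 KO above Nono KO by a log2 difference of 0.50 (adjusted p = 4.05e-05). Olfml1, an olfactomedin-like secreted protein, was at 0.265 and 0.0482 CPM in WT, at 13, 10.6 and 15.3 in Xap5 KO, at 8.63, 8.48 and 9.65 in Nono KO and at 7.96, 7.81 and 8.75 in Sox5 KO. Xap5 KO exceeded Sox5 KO in Olfml1 (log2 0.61, adjusted p = 0.00705), and its difference from Nono KO missed the threshold (log2 0.43, adjusted p = 0.0517) but passed it without Xap5 KO replicate 2 (adjusted p = 0.0277) or without either WT library (adjusted p = 0.0261 without replicate 1).

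Postn (periostin), Ccn4 (Wisp1) and Lama4 (the laminin alpha-4 chain of basement membranes) peaked in Nono KO. Lama4 was at 73.2 and 70.2 CPM in WT, at 312, 313 and 317 in Xap5 KO, at 464, 454 and 480.0 in Nono KO and at 268, 285 and 278 in Sox5 KO. Nono KO exceeded Sox5 KO by a log2 difference of 0.80 (SE 0.05, adjusted p = 9.99e-12), and Xap5 KO lay close above Sox5 KO (log2 0.12, adjusted p = 0.0385). That last call was lost when any of 6 single libraries was left out, namely Xap5 KO replicates 1 and 2 (adjusted p = 0.108 and 0.075), Sox5 KO replicates 1 and 3 (adjusted p = 0.123 and 0.0694) and WT replicates 1 and 2 (adjusted p = 0.0616 and 0.0624). It was also lost in edgeR with knockout libraries alone (adjusted p = 0.0582), DESeq2 size factors (adjusted p = 0.0603) or no low-count filter (adjusted p = 0.0639). Postn was at 139.9 and 136 CPM in WT, at 810.3, 800.2 and 939 in Xap5 KO, at 1079, 1085 and 1219 in Nono KO and at 1040.0, 1058 and 1078 in Sox5 KO. Xap5 KO was its lowest line (log2 -0.52 against Nono KO, adjusted p = 3e-07), and the small excess of Nono KO over Sox5 KO (log2 0.14, adjusted p = 0.0482) was lost without Nono KO replicate 3 (adjusted p = 0.259), without Sox5 KO replicate 1, 2 or 3 (adjusted p = 0.119, 0.079 and 0.0688), or with scaling by library totals (log2 0.09, adjusted p = 0.212). Ccn4 was at 28.9 to 30.5 CPM in WT and 96.5 to 146 CPM in the knockouts, with Nono KO above Sox5 KO by a log2 difference of 0.39 (adjusted p = 2.94e-05).

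Relatives of these genes varied in direction. Among the CCN family, Ccn5 was called higher than WT in all 3 knockouts (log2 0.98, 1.82 and 1.11 in the Xap5, Nono and Sox5 knockouts) and Ccn3 lower in all 3 (log2 -2.33, -3.62 and -1.07). Thbs2 was called higher in Xap5 KO (log2 0.95) and Sox5 KO (log2 0.50) and not in Nono KO (log2 0.05, adjusted p = 0.532). Of a list of 42 tested matricellular proteins and proteoglycans, 5 were members. Of the other 37 genes, 32.4%, 62.2% and 32.4% were called higher than WT in the Xap5, Nono and Sox5 knockouts, against 23.2%, 23.5% and 30.6% of all tested genes, and 35.1%, 16.2% and 40.5% lower, against 22.3%, 25.1% and 30.3%. The median log2 difference of these 37 genes from WT was -0.03, 0.93 and -0.07 in that order, beside medians over all tested genes of 0.00, -0.02 and -0.01.

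The protease group was led by Mmp3 (stromelysin 1, a metalloproteinase that cleaves proteoglycans and activates collagenases). Mmp3 was at 0 CPM in WT, at 96.5, 102 and 104 in Xap5 KO, at 23, 21.1 and 22.4 in Nono KO and at 67.9, 65.6 and 64.6 in Sox5 KO. With WT at 0, the lines stood at least 1272-fold higher in Xap5 KO, 279-fold in Nono KO and 832-fold in Sox5 KO, taking 3 counts in the shallower WT library as the floor. The 3 lines did not overlap: Xap5 KO exceeded Sox5 KO (log2 difference 0.55, SE 0.068, adjusted p = 5.79e-07), and Nono KO was lower than Sox5 KO (log2 difference -1.53, SE 0.07, adjusted p = 2.24e-13). The promoter window of Mmp3 (RefSeq, GRCm38.p6, chr9:7445572-7445871, plus strand) is shown because it carries the AP-1 letters TGANTCA, the motif of Fos and Jun, which 7.81% of all windows hold on either strand. The match is in capitals and starts 46 bases before the gene start. Windows of Ctla2a held the AP-1 letters as well.
Mmp3: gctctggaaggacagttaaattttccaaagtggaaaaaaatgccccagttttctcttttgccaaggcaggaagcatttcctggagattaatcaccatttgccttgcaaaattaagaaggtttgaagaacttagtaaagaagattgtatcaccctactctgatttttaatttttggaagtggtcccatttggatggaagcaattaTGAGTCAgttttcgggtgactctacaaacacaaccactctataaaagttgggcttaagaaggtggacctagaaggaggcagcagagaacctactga
Mmp10 (stromelysin 2), which lies within 100 kb of Mmp3, did not meet the rule in Nono KO. Mmp10 was at 0 CPM in WT, at 3.39, 4.41 and 5.01 in Xap5 KO, at 0.283, 0 and 0.184 in Nono KO and at 3.87, 4.37 and 4.31 in Sox5 KO. Mmp10 was called higher than WT in all 3 knockouts, with adjusted p = 0.0064 in Nono KO, where 1 library had no count. Of the 14 tested Mmp genes other than Mmp3, 28.6%, 35.7% and 28.6% were called higher than WT in the Xap5, Nono and Sox5 knockouts, against 23.2%, 23.5% and 30.6% of all tested genes, and 42.9%, 21.4% and 35.7% lower, against 22.3%, 25.1% and 30.3%.

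Fap (fibroblast activation protein, a serine protease of activated stroma) was low in all lines at 0 and 0.145 CPM in WT, at 3.23, 2.43 and 1.83 in Xap5 KO, at 2.26, 1.49 and 2.13 in Nono KO and at 2.5, 1.49 and 1.26 in Sox5 KO, and its lines were not called apart. The 95% intervals of its log2 differences were wide, -0.43 to 1.34 for Xap5 KO against Sox5 KO and -0.68 to 1.10 for Nono KO against Sox5 KO, so differences of these sizes were not excluded. Ctla2a, a cysteine protease inhibitor described after its values were seen, was at 2.1 to 2.17 CPM in WT and 14.9 to 29.7 CPM in the knockouts. Nono KO was its lowest line, below Sox5 KO by a log2 value of -0.68 (adjusted p = 1.15e-05). Its neighbour Ctla2b was called higher than WT in all 3 knockouts (log2 2.98, 2.21 and 2.66), and reads of these close paralogs could have been split.

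Secreted signals made up 8 members: Igf2, Angpt1, Scg2, Sfrp1, Adm, Edn1, Stc1 and Ang2. Igf2 (insulin-like growth factor 2, an imprinted fetal growth factor) was at 3.65 and 0.675 CPM in WT, at 48.1, 40.8 and 58.6 in Xap5 KO, at 35.6, 33.7 and 39.5 in Nono KO and at 198, 238 and 243 in Sox5 KO. The 2 WT libraries differed more than 5-fold, and every Sox5 KO library lay far above the other lines. Nono KO was lower than Sox5 KO (log2 difference -2.59, SE 0.31, adjusted p = 0.000154) and Xap5 KO was lower as well (log2 difference -2.27, SE 0.30, adjusted p = 0.000329), while Xap5 KO and Nono KO were not called apart (95% interval -0.38 to 1.03). Igf2 overlaps Gm49394 on its own strand and Igf2os on the other.

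Angpt1 (angiopoietin 1, a ligand of the Tek receptor that stabilises vessels) was at 0.9 and 1.09 CPM in WT, at 54.7, 57.2 and 65.2 in Xap5 KO, at 9.71, 10.9 and 12.2 in Nono KO and at 14.9, 15.7 and 16.8 in Sox5 KO. Its Xap5 KO libraries lay far above all others, with Xap5 KO above Nono KO (log2 difference 2.32, SE 0.10, adjusted p = 1.27e-13) and Sox5 KO (log2 difference 1.84, SE 0.10, adjusted p = 2.54e-12). Its relatives did not share that order: Angpt4 was at 2.72 to 4.06 CPM in Xap5 KO and 18.6 to 19.6 CPM in Sox5 KO, and Angpt2 was called lower than WT in Xap5 KO and Nono KO (log2 -0.57 and -1.90) and higher in Sox5 KO (log2 0.95). Angpt1 overlaps the antisense gene Gm17473.

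Scg2 (secretogranin 2, a granule protein cut into neuropeptides) was at 0.0529 and 0.699 CPM in WT, at 6.46, 7.57 and 7.91 in Xap5 KO, at 51.8, 54.2 and 68.5 in Nono KO and at 51, 44.8 and 48.5 in Sox5 KO. Here Xap5 KO stood apart at the low end, lower than Nono KO (log2 difference -3.10, SE 0.24, adjusted p = 4.2e-06) and Sox5 KO (log2 difference -2.78, SE 0.24, adjusted p = 6.03e-06). Adm (adrenomedullin, a vasodilator peptide named after its values were seen) had the same lowest line: it was at 37.8 to 56.6 CPM in Xap5 KO, 89 to 104 in Nono KO and 85 to 91.7 in Sox5 KO, against 6.99 to 7.89 in WT. Xap5 KO was lower than Nono KO in Adm by a log2 value of -1.07 (adjusted p = 8.55e-05).

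Sfrp1 (a secreted antagonist of Wnt ligands) peaked in Nono KO. It was at 39.3 and 42.3 CPM in WT, at 183, 185 and 164 in Xap5 KO, at 365, 325 and 333 in Nono KO and at 152, 174 and 168 in Sox5 KO. Nono KO exceeded Sox5 KO (log2 difference 1.10, SE 0.067, adjusted p = 7.47e-12), and Xap5 KO and Sox5 KO were not called apart (log2 0.05, 95% interval -0.09 to 0.19). Of 28 tested secreted factors of the Wnt, BMP and TGF-beta pathways, Sfrp1 was the 1 member. Of the other 27, 18.5%, 40.7% and 18.5% were called higher than WT in the Xap5, Nono and Sox5 knockouts, against 23.2%, 23.5% and 30.6% of all tested genes, and 59.3%, 33.3% and 55.6% lower, against 22.3%, 25.1% and 30.3%.

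Stc1 (stanniocalcin 1, a calcium and phosphate hormone) had no WT count and was at 2.33, 2.26 and 1.4 CPM for Xap5 KO, at 1.51, 1.93 and 2.47 in Nono KO and at 5.09, 4.34 and 5.48 in Sox5 KO. With the same floor as for Mmp3, the Sox5 KO mean stood at least 62.6-fold higher than WT. The Sox5 KO libraries were the highest, with Nono KO lower by a log2 value of -1.29 (adjusted p = 0.000861) and Xap5 KO lower by -1.37 (adjusted p = 0.0005). Stc2, its paralog, was called higher than WT in all 3 lines (log2 1.15, 2.41 and 2.55). Ang2 (a secreted ribonuclease of the angiogenin family, not angiopoietin 2) was at 0.609 and 0.41 CPM in WT, at 3.62, 2.51 and 4.33 in Xap5 KO, at 2.47, 3.26 and 2.58 in Nono KO and at 13.5, 14 and 13.1 in Sox5 KO. Its Sox5 KO libraries stood apart (log2 -2.02 for Xap5 KO against Sox5 KO, adjusted p = 3.63e-08). Edn1 (endothelin 1, a vasoconstrictor peptide named after its values were seen) was lowest in Nono KO, at 4.08 to 4.86 CPM against 9.15 to 10.6 CPM in Xap5 KO and 11.2 to 11.5 CPM in Sox5 KO. Nono KO was lower than Sox5 KO by a log2 value of -1.34 (adjusted p = 0.00281), and the difference from Xap5 KO was lost without Xap5 KO replicate 1 (adjusted p = 0.0504).

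**Figure D3:**
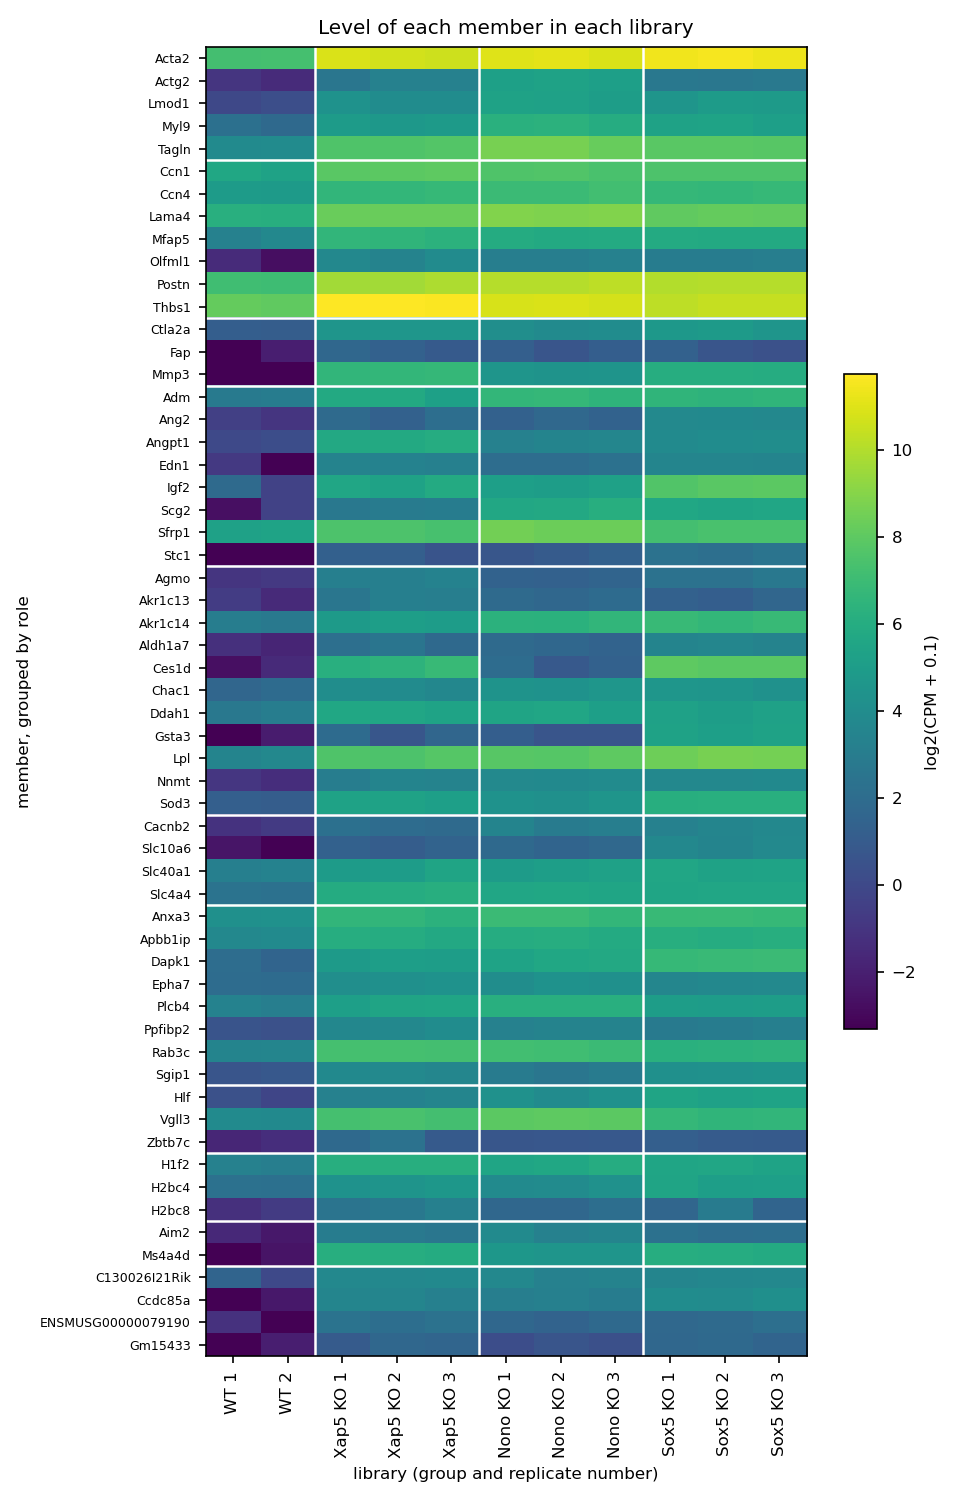
Each cell shows log2(CPM + 0.1) of a member in 1 library, with members grouped by role and libraries by genotype (white lines separate the groups). The WT columns hold the lowest values of every row, as the rule requires. Ces1d, Gsta3, Igf2 and Scg2 show the strongest contrast among the knockout columns.

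Enzymes were the largest group, with 11 members, and 6 of them were called higher in Sox5 KO than in both other lines, a pattern called in 20.9% of all tested genes. Ces1d (a carboxylesterase that hydrolyses triglycerides and ester drugs) showed the widest spread of all 58 genes. It was at 0.0529 and 0.241 CPM in WT, at 72.1, 86.1 and 113 in Xap5 KO, at 3.96, 1.72 and 2.42 in Nono KO and at 258, 234 and 241 in Sox5 KO. The Sox5 KO mean was 90.5 times the Nono KO mean, with Nono KO lower than Sox5 KO (log2 difference -6.45, SE 0.29, adjusted p = 3.07e-07) and Xap5 KO between them (log2 difference -1.50, SE 0.22, adjusted p = 0.000471). Ces1f, which lies within 100 kb of Ces1d, and the relative Ces1g had the same order of lines: Ces1f was at 1.48 to 2.84 CPM in Xap5 KO, 0 to 0.46 in Nono KO and 33.3 to 38.7 in Sox5 KO, and Ces1g at 7.12 to 9.64, 1.41 to 2.39 and 153 to 158 CPM. The levels of Ces1e, the other tested gene within 100 kb, are not given here. Of the 5 tested Ces1 genes other than Ces1d, 3, 1 and 5 were called higher than WT in the Xap5, Nono and Sox5 knockouts, against 23.2%, 23.5% and 30.6% of all tested genes, and none lower. Their median log2 difference from WT was 3.15, 0.26 and 6.98, beside 0.00, -0.02 and -0.01 for all tested genes. Reads of these tandem paralogs could have been split among them.

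Gsta3 (an alpha-class glutathione transferase that also isomerises steroids) was at 0 and 0.121 CPM in WT, at 3.67, 1.53 and 3.1 in Xap5 KO, at 2.14, 1.45 and 1.45 in Nono KO and at 40.3, 36.4 and 40.2 in Sox5 KO. Its Sox5 KO libraries stood far above both other lines (log2 -3.88 for Xap5 KO against Sox5 KO, SE 0.30, adjusted p = 2.84e-07), and the Sox5 KO mean was 23.2 times the lowest line mean. Its relative Gsta4 was at 29.1 to 38.9 CPM in WT and 161 to 174 CPM in Sox5 KO, and was called higher than WT in all 3 knockouts (log2 0.86, 1.11 and 2.42). Aldh1a7, an aldehyde dehydrogenase, was at 0.318 and 0.193 CPM in WT, at 4.5, 5.61 and 3.39 in Xap5 KO, at 3.63, 3.13 and 2.65 in Nono KO and at 11.1, 11.9 and 10.6 in Sox5 KO, again highest in Sox5 KO (log2 -1.78 for Nono KO against Sox5 KO, adjusted p = 2.36e-07).

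Lpl (lipoprotein lipase, which releases fatty acids from circulating triglycerides) was at 10.9 and 13 CPM in WT, at 193, 184 and 215 in Xap5 KO, at 227, 220.4 and 254 in Nono KO and at 346, 398 and 381 in Sox5 KO. Its lines were ordered without overlap, Xap5 KO below Nono KO (log2 difference -0.35, SE 0.072, adjusted p = 0.000353) and Nono KO below Sox5 KO (log2 difference -0.63, SE 0.072, adjusted p = 2.27e-07). The line means were 16.5, 19.6 and 31.4 times the WT mean. The 8 adipocyte markers summed to 9.57 to 27.5 CPM over the libraries: Adipoq, Plin1 and Fabp4 stayed at or below 0.183, 0.212 and 0.636 CPM in every library, and Lep was at 0. Lipe made up most of the sum, at 17.4 to 21.1 CPM in WT, 22.5 to 27.1 in Xap5 KO, 8.93 to 12.2 in Nono KO and 16.1 to 17.7 in Sox5 KO. Its call against WT was higher for Xap5 KO and lower for Nono KO, and Fabp4 was called higher in Nono KO (adjusted p = 0.0449). The part of these markers in the Lpl level was not tested.

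A pair of aldo-keto reductases, which reduce steroids and aldehydes, were ordered in opposite ways. Akr1c14 was at 8.33 and 6.61 CPM in WT, at 29.6, 34.1 and 32.4 in Xap5 KO, at 83, 79.1 and 95.8 in Nono KO and at 113, 101 and 112 in Sox5 KO. Akr1c13 was at 0.529 and 0.241 CPM in WT, at 6.03, 9.07 and 8.56 in Xap5 KO, at 3.58, 3.15 and 3.76 in Nono KO and at 2.5, 2.19 and 3.05 in Sox5 KO. Xap5 KO was the lowest line for Akr1c14 (log2 -1.82 against Sox5 KO, adjusted p = 1.94e-13) and the highest for Akr1c13 (log2 1.55 against Sox5 KO, adjusted p = 1.07e-05). Akr1c18, a relative that is no member, was called higher than WT in all 3 knockouts, by most in Sox5 KO (log2 3.21).

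Agmo (alkylglycerol monooxygenase, which cleaves ether lipids) peaked in Xap5 KO. It was at 0.397 and 0.458 CPM in WT, at 9, 8.95 and 10.1 in Xap5 KO, at 2.52, 2.46 and 2.73 in Nono KO and at 5.03, 5.1 and 6.36 in Sox5 KO, and all 3 lines were called apart, Xap5 KO above Sox5 KO (log2 0.70, adjusted p = 0.00191) and Nono KO below Sox5 KO (log2 -1.05, adjusted p = 5.32e-05). Nnmt (nicotinamide N-methyltransferase) was at 0.289 to 0.423 CPM in WT and 8.38 to 15.1 CPM in the knockouts, with Xap5 KO lowest (log2 -0.62 against Nono KO, adjusted p = 0.000603). Ddah1 (which degrades methylarginine inhibitors of nitric oxide synthase) was at 6.35 to 8.25 CPM in WT and 33.6 to 50.6 CPM in the knockouts. Its only called difference, Xap5 KO above Sox5 KO (log2 0.30, adjusted p = 0.0276), was lost without Sox5 KO replicate 2 (adjusted p = 0.119), Xap5 KO replicate 1 (adjusted p = 0.127) or Xap5 KO replicate 2 (adjusted p = 0.0813), while Nono KO above Sox5 KO (adjusted p = 0.0599) became called in 8 of the alternatives. Its adjusted p was then 0.00647 without Nono KO replicate 3 and 0.0354 to 0.0498 in the other 7, which left out WT replicate 1 or 2, both of them, or Xap5 KO replicate 1 or 3, used DESeq2 size factors, or required a mean of 50 counts.

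The remaining enzymes, Sod3 and Chac1, are given although the naming rule did not take them. Sod3 (extracellular superoxide dismutase) was at 2.1 to 2.28 CPM in WT, 36.1 to 41 in Xap5 KO, 19.13 to 22.9 in Nono KO and 68.6 to 71.8 in Sox5 KO, with all 3 lines called apart (log2 -1.72 for Nono KO against Sox5 KO, adjusted p = 3.15e-13). Chac1 (a glutathione-degrading enzyme of the stress response) was at 3.1 to 3.81 CPM in WT and 12.7 to 24.3 CPM in the knockouts, with Xap5 KO below both others (log2 -0.65 against Nono KO, adjusted p = 0.00019). Of 45 tested detoxification and small-molecule enzymes, 5 were members. Of the other 40, 13, 20 and 19 were called higher than WT in the Xap5, Nono and Sox5 knockouts, against 23.2%, 23.5% and 30.6% of all tested genes, and 7, 7 and 10 lower, against 22.3%, 25.1% and 30.3%. The median log2 difference of these 40 genes from WT was 0.21, 0.51 and 0.47, beside 0.00, -0.02 and -0.01 for all tested genes.

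Transport members were Slc10a6, Slc4a4, Slc40a1 and Cacnb2. Slc10a6 (a carrier of sulphated steroids) was at 0.0794 and 0 CPM in WT, at 2.43, 2.1 and 2.64 in Xap5 KO, at 3.44, 2.8 and 3.34 in Nono KO and at 13.2, 11 and 13.7 in Sox5 KO. Sox5 KO stood above both other lines (log2 -1.93 for Nono KO against Sox5 KO, adjusted p = 1.09e-07). Slc4a4 (a sodium bicarbonate cotransporter) was at 5.19 and 4.85 CPM in WT, at 61.9, 62.8 and 69.2 in Xap5 KO, at 47.9, 49.3 and 46 in Nono KO and at 46, 48.6 and 49 in Sox5 KO. Xap5 KO stood above Nono KO by a log2 difference of 0.32 (adjusted p = 0.000606) and above Sox5 KO by 0.37 (adjusted p = 0.000122). Cacnb2, an auxiliary subunit of calcium channels, was at 0.37 to 0.482 CPM in WT, 3.58 to 4.6 in Xap5 KO, 7.45 to 10.9 in Nono KO and 9.91 to 12.9 in Sox5 KO, lowest in Xap5 KO (log2 -1.57 against Sox5 KO, adjusted p = 2.39e-07). Slc40a1 (ferroportin, the iron exporter) was at 8.84 to 10.01 CPM in WT and 31.1 to 47.6 CPM in the knockouts. Its only called difference, Xap5 KO below Sox5 KO (log2 -0.33, adjusted p = 0.0238), was lost without Xap5 KO replicate 1 (adjusted p = 0.0969), Xap5 KO replicate 2 (adjusted p = 0.1) or Sox5 KO replicate 1 (adjusted p = 0.105), and with scaling by library totals (adjusted p = 0.0805).

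Intracellular signalling and adhesion genes comprised Rab3c, Plcb4, Dapk1, Apbb1ip, Epha7, Sgip1, Ppfibp2 and Anxa3. Rab3c (a GTPase of regulated exocytosis) was at 10.9 and 11.3 CPM in WT, at 159, 159 and 151 in Xap5 KO, at 148, 141 and 121 in Nono KO and at 76.5, 82.7 and 84.9 in Sox5 KO. Sox5 KO was its lowest line (log2 0.79 for Nono KO against Sox5 KO, adjusted p = 2.19e-09), and Xap5 KO and Nono KO were not called apart (95% interval -0.06 to 0.23), though they were with scaling by library totals (log2 0.19, adjusted p = 0.0189). Plcb4 (a phospholipase C activated by Gq proteins) was at 10.00 and 8.49 CPM in WT, at 36.7, 45 and 46.2 in Xap5 KO, at 72.2, 72.7 and 73 in Nono KO and at 32.6, 31.4 and 33.7 in Sox5 KO. It was highest in Nono KO (log2 1.21 against Sox5 KO, adjusted p = 6e-11).

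Dapk1 (death-associated protein kinase 1, named after its values were seen) was at 4.02 and 2.75 CPM in WT, at 30, 34.4 and 33.1 in Xap5 KO, at 43.3, 49.8 and 54.2 in Nono KO and at 107, 120.1 and 122 in Sox5 KO. Its 3 lines stepped up from Xap5 KO to Nono KO (log2 -0.71, adjusted p = 6.98e-06) and from Nono KO to Sox5 KO (log2 -1.20, adjusted p = 3.08e-09). Epha7 (an ephrin receptor) was at 3.81 to 3.86 CPM in WT and 12.1 to 20.6 CPM in the knockouts, lowest in Sox5 KO (log2 0.58 for Nono KO against Sox5 KO, adjusted p = 0.000208). Anxa3 (an annexin) was at 19 to 19.2 CPM in WT and 82 to 124 CPM in the knockouts, lowest in Xap5 KO (log2 -0.44 against Nono KO, adjusted p = 0.000213).

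Apbb1ip (RIAM, an adaptor that brings talin to integrins) was the most even member. It was at 12.7 and 14.4 CPM in WT, at 65.6, 62.9 and 54.1 in Xap5 KO, at 65.2, 65.9 and 59.6 in Nono KO and at 70.2, 64.9 and 70.5 in Sox5 KO, and its highest line mean was 1.13 times the lowest. Xap5 KO was called below Sox5 KO (log2 -0.23, adjusted p = 0.0202), a call lost without Xap5 KO replicate 3 (adjusted p = 0.141), Sox5 KO replicate 1 (adjusted p = 0.0633) or Sox5 KO replicate 3 (adjusted p = 0.0645), and with scaling by library totals (adjusted p = 0.0725). Sgip1 (an endocytic adaptor) and Ppfibp2 (a liprin), both outside the naming rule, differed in order. Sgip1 was at 5.84 to 7.66 CPM in Nono KO and 18.6 to 21.5 CPM in Sox5 KO (log2 -1.46, adjusted p = 7.8e-09), whereas Ppfibp2 was at 12.2 to 15.7 CPM in Xap5 KO and 7.14 to 9.09 CPM in Sox5 KO (log2 0.69, adjusted p = 0.000327). Ppfibp2 overlaps Cyb5r2 on the opposite strand.

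Transcription regulators were Vgll3, Hlf and Zbtb7c. Vgll3 (a cofactor of TEAD factors) was at 14.9 and 13.8 CPM in WT, at 160.2, 168 and 151 in Xap5 KO, at 245, 253 and 247 in Nono KO and at 103, 91.4 and 96.7 in Sox5 KO. Each line was separate from the next: Nono KO exceeded Xap5 KO (log2 -0.75 for Xap5 KO against Nono KO, adjusted p = 8.58e-10) and Xap5 KO exceeded Sox5 KO (log2 0.66, adjusted p = 4.49e-09). Hlf (a PAR bZIP factor that follows the circadian clock) was at 1.22 and 0.772 CPM in WT, at 9.9, 9.97 and 11.6 in Xap5 KO, at 19.2, 15.1 and 19.3 in Nono KO and at 44, 39.3 and 42.4 in Sox5 KO. It stepped up from Xap5 KO through Nono KO to Sox5 KO (log2 -0.88 and -1.18, adjusted p = 3.03e-06 and 1.7e-08). Vgll4, a relative of Vgll3, was called lower than WT in all 3 knockouts (log2 -0.86, -1.09 and -1.92). Zbtb7c, a zinc-finger protein outside the naming rule, stayed between 1.51 and 5.11 CPM in the knockouts. Its only called difference, Xap5 KO above Nono KO (adjusted p = 0.0206), was lost without Xap5 KO replicate 2, its highest library (adjusted p = 0.225), or without Nono KO replicate 1 (adjusted p = 0.0555). Members were 58 of the 13332 tested genes, so nothing is read from their absence from a short list. No member was among the 90 tested genes of a list of developmental transcription factors. None was among the 69 tested genes of a primary cilium and Hedgehog list either, of which 18.8%, 20.3% and 11.6% were called higher than WT in the Xap5, Nono and Sox5 knockouts, against 23.2%, 23.5% and 30.6% of all tested genes, and 20.3%, 23.2% and 53.6% lower, against 22.3%, 25.1% and 30.3%.

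Histone members were H1f2 (a linker histone), H2bc4 and H2bc8 (core histones H2B), from the clusters that are transcribed during DNA replication. H1f2 was at 9.87 and 8.49 CPM in WT, at 68.8, 68.6 and 69.6 in Xap5 KO, at 46.1, 50.05 and 62.9 in Nono KO and at 45.4, 47.2 and 42.2 in Sox5 KO. H2bc4 was at 4.76 and 4.61 CPM in WT, at 20.7, 21.7 and 25.1 in Xap5 KO, at 15, 15.3 and 19.9 in Nono KO and at 43.8, 35.3 and 35.9 in Sox5 KO. H1f2 was highest in Xap5 KO (log2 0.56 against Sox5 KO, adjusted p = 3.06e-05) and H2bc4 in Sox5 KO (log2 -0.83 for Xap5 KO against Sox5 KO, adjusted p = 2.08e-06). The calls of Xap5 KO above Nono KO in H1f2, H2bc4 and H2bc8 (adjusted p = 0.0199, 0.0263 and 0.0264) were each lost when some single libraries were left out. Without Nono KO replicate 1 the values were 0.141, 0.128 and 0.0912, and without Nono KO replicate 2 they were 0.0759, 0.101 and 0.0878. Without Xap5 KO replicate 3, H2bc4 stood at 0.135 and H2bc8 at 0.116, and H1f2 stood at 0.0682 and 0.054 without Xap5 KO replicates 1 and 2. The H2bc4 call was also lost with the DESeq2 test (adjusted p = 0.0501). The smaller excess of Nono KO over Sox5 KO in H1f2 (log2 0.29, adjusted p = 0.0123) was lost without Nono KO replicate 3 (adjusted p = 0.141) or Sox5 KO replicate 3 (adjusted p = 0.0625).

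H2bc8 was at 0.318 and 0.506 CPM in WT, at 5.56, 6.57 and 9.39 in Xap5 KO, at 3.16, 3.2 and 4.18 in Nono KO and at 3.08, 7.55 and 2.74 in Sox5 KO, and 1 Sox5 KO library stood well above the other two. Xap5 KO was not called above Sox5 KO in H2bc8 (log2 0.62, adjusted p = 0.111), but it was without that library, Sox5 KO replicate 2 (log2 1.24, adjusted p = 0.000871). Among the 44 other tested histone genes, a list made by symbol after the members were known, 25, 20 and 20 were called higher than WT in the Xap5, Nono and Sox5 knockouts, against 23.2%, 23.5% and 30.6% of all tested genes, and 0, 1 and 2 lower, against 22.3%, 25.1% and 30.3%. Of a list of 40 genes of S phase and mitosis, none of them members, 30, 19 and 21 were called higher than WT, against 23.2%, 23.5% and 30.6% of all tested genes, and 2, 4 and 6 lower, against 22.3%, 25.1% and 30.3%. Its summed level was 1357 to 1490 CPM in WT, 2133 to 2333 CPM in Xap5 KO, 1128 to 1576 CPM in Nono KO and 1486 to 1566 CPM in Sox5 KO, and its part in the histone levels was not tested. Histone genes of 1 class are near-identical in coding sequence, so their counts are uncertain.

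Members with a known immune role were Ms4a4d and Aim2. Ms4a4d (a tetraspan membrane protein) was at 0 and 0.0723 CPM in WT, at 69.1, 67.3 and 61.5 in Xap5 KO, at 25.2, 22.8 and 23.2 in Nono KO and at 65.5, 62.9 and 59.8 in Sox5 KO. Nono KO was its lowest line, below Sox5 KO (log2 difference -1.35, SE 0.092, adjusted p = 4.33e-11), while Xap5 KO and Sox5 KO were close together (log2 0.01, 95% interval -0.17 to 0.20). The relative Ms4a6c, within 100 kb of it, was at 0 CPM in WT, at 3.96, 5.31 and 5.54 in Xap5 KO, at 0.236, 0 and 0 in Nono KO and at 3.72, 3.64 and 4.19 in Sox5 KO. Of the 5 tested Ms4a genes other than Ms4a4d, 4, 0 and 5 were called higher than WT in the Xap5, Nono and Sox5 knockouts, against 23.2%, 23.5% and 30.6% of all tested genes. Aim2 (a cytosolic DNA sensor of the inflammasome) was at 0.238 and 0.0965 CPM in WT, at 7.81, 6.84 and 6 in Xap5 KO, at 14.7, 9.82 and 11.1 in Nono KO and at 4.82, 4.01 and 4.25 in Sox5 KO, with Nono KO above Xap5 KO (log2 -0.89 for Xap5 KO against Nono KO, adjusted p = 0.000482). Xap5 KO was called above Sox5 KO (log2 0.60, adjusted p = 0.0121), which was lost without Xap5 KO replicate 1 (adjusted p = 0.0634).

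The 12 macrophage markers summed to 9.02 and 9.65 CPM in WT and to 10.4 to 17.7 CPM in the knockouts, Tyrobp was at 0 in all 11 libraries, and Adgre1 and Itgam did not exceed 0.141 and 0.0526 CPM. Of the 6 tested macrophage markers none was called higher than WT in Xap5 KO, and 2 each were in Nono KO (Ptprc at 5.73 to 6.9 CPM and Lyz2 at 1.46 to 2.18 CPM) and in Sox5 KO (Cd14 at 7.49 to 7.58 CPM and Lyz2 at 1.13 to 1.57 CPM). Of all tested genes, 23.2%, 23.5% and 30.6% were called higher in the Xap5, Nono and Sox5 knockouts, so nothing is read from these small counts. Ptprc was called lower than WT in Sox5 KO, where it was at 0 in every library. The part of these markers in the levels of Aim2 and Ms4a4d was not tested. Cd3e and Ms4a1 were at 0 in all libraries. No member was among 47 tested interferon-stimulated genes, of which 38.3%, 40.4% and 42.6% were called higher than WT in the Xap5, Nono and Sox5 knockouts, against 23.2%, 23.5% and 30.6% of all tested genes, and 6.38%, 4.26% and 10.6% lower, against 22.3%, 25.1% and 30.3%. Nothing is read from the absence of members from this short list.

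Members with no clear role were Ccdc85a (a coiled-coil protein), C130026I21Rik, Gm15433 and ENSMUSG00000079190. Ccdc85a was at 0 and 0.0965 CPM in WT, at 11.5, 11.4 and 9.18 in Xap5 KO, at 8.48, 9.4 and 7.96 in Nono KO and at 15.6, 15.2 and 17.9 in Sox5 KO, highest in Sox5 KO (log2 -0.87 for Nono KO against Sox5 KO, adjusted p = 0.000121). C130026I21Rik was at 0.916 to 2.8 CPM in WT and 9.7 to 13.8 CPM in the knockouts with no line called apart; it overlaps genes on both strands. ENSMUSG00000079190 was at 2.67 to 5.25 CPM in the knockouts, also with no line called apart. Gm15433 was lowest in Nono KO, at 1.06 to 1.47 CPM against 2.74 to 3.51 CPM in Sox5 KO (log2 -1.29, adjusted p = 0.00618), and its difference from Xap5 KO (adjusted p = 0.0352) was lost when any of 7 single libraries was left out. Its adjusted p was then 0.13 and 0.0821 without Xap5 KO replicates 2 and 3, 0.0942 and 0.0798 without Nono KO replicates 1 and 3, and 0.055, 0.0551 and 0.0519 without Sox5 KO replicates 1, 2 and 3. ENSMUSG00000079190 and Gm15433 lay outside the naming rule.

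Across the 58 genes the lines were graded, but no line led throughout. The highest line mean was in Sox5 KO for 23 members, in Xap5 KO for 20 and in Nono KO for 15, and the lowest was in Nono KO for 23, Xap5 KO for 18 and Sox5 KO for 17. All 6 possible orders occurred, most often Sox5 KO above Xap5 KO above Nono KO with 14 members and least often Nono KO above Xap5 KO above Sox5 KO with 6. The ratio of the highest to the lowest line mean had a median of 2.15. It was under 2 in 26 members, at least 3 in 16, at least 5 in 7 and at least 10 in Ces1d and Gsta3. The rule keeps every knockout library above a floor, so a line cannot lie arbitrarily low, but it sets no ceiling on the highest line.

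**Figure D4:**
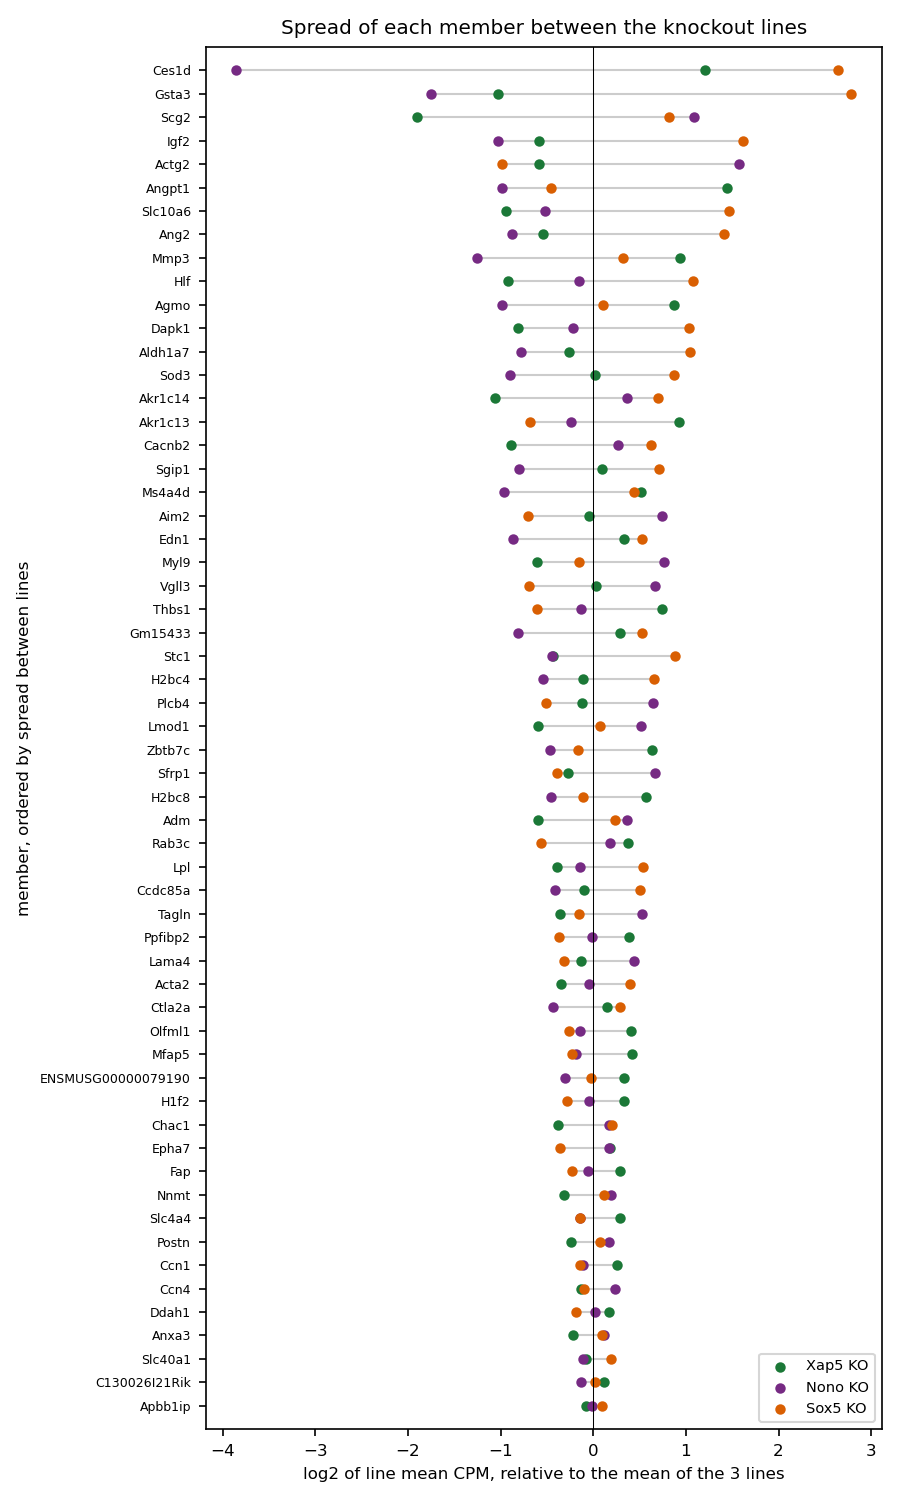
For each member the log2 mean CPM of each knockout line (n = 3 libraries) is drawn relative to the average of the 3 lines, with members ordered by the distance between the outer lines. The spread runs from Ces1d and Gsta3 at the top to Apbb1ip at the bottom, and the colour on the right changes from gene to gene.

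In the tests between lines, Xap5 KO against Nono KO had 19 members called higher (27.1% of all tested genes were) and 22 called lower (25.9%). Xap5 KO against Sox5 KO had 18 higher (31.1%) and 28 lower (30.4%), and Nono KO against Sox5 KO had 16 higher (30.9%) and 23 lower (32.6%). As shares of the 58 members, the 6 counts were 32.8%, 37.9%, 31.0%, 48.3%, 27.6% and 39.7%; the share lower for Xap5 KO against Sox5 KO stood furthest from its background. The median log2 differences of the members were 0.11, -0.24 and -0.08 in the 3 comparisons, beside 0.01, 0.02 and -0.00 over all tested genes. The median sizes regardless of sign were 0.64, 0.63 and 0.61, beside 0.34, 0.45 and 0.48. The 3 comparisons share libraries and are not independent of one another.

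**Figure D5:**
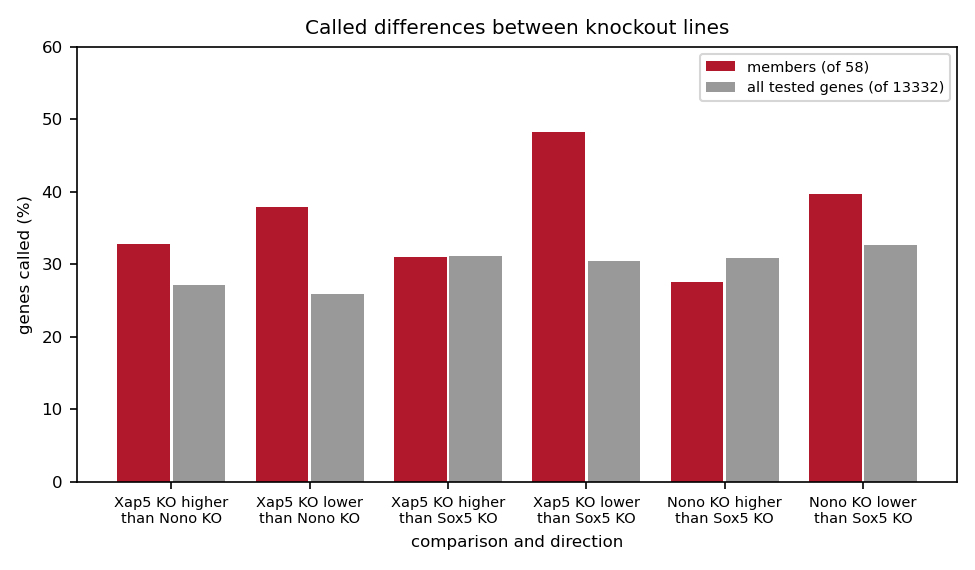
Bars give the percentage of the 58 members (dark red) and of the 13332 tested genes (grey) called by edgeR in each comparison and direction. The tallest bar is that of members lower for Xap5 KO against Sox5 KO, 48.3% beside 30.4% of all tested genes.

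Differences of at least 2-fold among the calls numbered 7 higher and 8 lower for Xap5 KO against Nono KO (5.24% and 5.81% of all tested genes). They numbered 3 and 12 for Xap5 KO against Sox5 KO (7.91% and 7.06%) and 5 and 17 for Nono KO against Sox5 KO (9.62% and 7.40%). Sox5 KO was called above both other lines in 16 members (20.9% of all tested genes had that pattern), among them Igf2, Ces1d, Gsta3, Lpl, Hlf and Ang2. Nono KO was above both in 11 (14.5%), among them Tagln, Myl9, Actg2, Sfrp1 and Vgll3. Xap5 KO was above both in 9 (13.2%), among them Thbs1, Angpt1, Mmp3 and Agmo. At the low end, Xap5 KO was below both others in 15 (13.0%), Nono KO in 11 (15.3%) and Sox5 KO in 9 (20.5%). All 3 pairs were called in 22 members (26.6%), and none in Fap, C130026I21Rik and ENSMUSG00000079190 (19.3%).

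The SD within a line on the log2 scale had a median of 0.12 over the members and reached 0.41. Of the 126 called differences between lines, 15, in 14 members, were lost when at least 1 library was left out; 14 of them are given beside their genes, and the last was Nono KO above Sox5 KO in Ppfibp2 (adjusted p = 0.0193, and 0.0936 without Sox5 KO replicate 1). Annotated genes overlapped 5 members in the sense direction and 10 in the antisense direction. The longest annotated transcript of the members had a median of 3.01 kb, beside 3.38 kb for all tested genes. Per kilobase of transcript, the highest member in each line was Acta2, at 823, 1012 and 1372 CPM per kb in the Xap5, Nono and Sox5 knockouts and 75.5 in WT, followed by Thbs1 at 575, 315 and 226 against 47.6.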

How the data were processed

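The data were gene-level RNA-seq values of NIH/3T3 cells after serum withdrawal, 11 libraries in 4 groups, WT (n = 2) and 3 knockouts (n = 3 each). The deposited gene table holds whole numbers that the authors made before deposit, and they were treated as estimated counts rounded to whole numbers, since the frequencies of the lowest values (857 values of 1, 3302 of 2 and 1767 of 3) are not those of plain read counts. Per the submitters' processing notes, the tools named are HISAT2 2.1.0, StringTie 1.3.3b and DESeq2 1.12.4 and the build is GRCm39; the annotation and the strand setting of the counting are not given in the sources used here. The sample of each column was taken from its name, and no column was left unused.

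CPM used the column total. Tests used 1 edgeR 4.0.16 quasi-likelihood fit of all 11 libraries (R 4.3.3, limma 3.58.1, TMM factors, filterByExpr with a minimum count of 10, robust), Benjamini-Hochberg adjustment over 13332 genes and a call at an adjusted p under 0.05. Standard errors are the log2 difference divided by the square root of its F statistic. The fit was run on simulated data in which only some genes changed, in Xap5 KO alone, and every gene shared the same spread. That setting is simpler than these data. Depth of 30205878 to 43498383 counts left every member with at least 40 counts in each knockout library. Replicate numbers were not used to pair the samples, since the labels do not say what a number marks. Correlations of same-numbered deviations ran from -0.0226 to 0.0247 over the 9 pairs of knockout libraries and reached 0.0465 with WT, none over 0.1. These values cannot show that the numbers mark no shared culture or day. The members and gene lists were chosen with earlier results of these data known. Members were named when they were among the 12 with the largest lowest-knockout ratio, the 12 with the highest count, the 5 largest called differences of each pair and direction, the 6 most even, the 3 nearest the threshold on either side, or in a gene list or symbol family; others are marked as named after their values were seen. GENCODE M21 (GRCm38) gave chromosomes, neighbours, lengths and overlaps only, since the files' build differs. Alternatives were DESeq2 1.42.0, limma-voom, other filters and scalings, a replicate block, knockout libraries alone, other membership settings and leaving out each library.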

Additional observations from a re-analysis of the deposited data

How the results depend on the processing

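Of the 126 called differences between lines, none changed direction under any alternative run. A requirement of at least 2-fold left 7 members higher and 8 lower for Xap5 KO against Nono KO, 3 and 12 for Xap5 KO against Sox5 KO, and 5 and 17 for Nono KO against Sox5 KO. It left 2, 2 and 9 members above both other lines for the Xap5, Nono and Sox5 knockouts, and 27 with no called difference. For the pair counts, the shares of all tested genes at 2-fold were 5.24% and 5.81%, 7.91% and 7.06%, and 9.62% and 7.40%. For the patterns above both other lines and with no called difference, such shares were not computed, so nothing is read from those counts. Membership itself depended on its settings: a fold of 2 gave 102 genes, a fold of 5 gave 32, and a constant of 1 CPM gave 35. Leaving out 1 library at a time gave 58 to 72 members, with 69 without WT replicate 1 and 72 without WT replicate 2. Over the 11 omissions, members called ran from 14 to 20 higher and 22 to 24 lower for Xap5 KO against Nono KO, 16 to 19 and 26 to 28 for Xap5 KO against Sox5 KO, and 14 to 18 and 23 to 24 for Nono KO against Sox5 KO. Those above both other lines ran from 8 to 10 in Xap5 KO, 10 to 12 in Nono KO and 16 to 17 in Sox5 KO, and 3 to 6 had no called difference. Shares of all tested genes were not computed for these omissions or for the replicate block below, so nothing is read from the changes in count. With the replicate number as a block, 24 members in place of 23 were lower in Nono KO than in Sox5 KO and 17 in place of 16 were above both in Sox5 KO; the other counts were equal. Of the 9 knockout libraries, 6 were closest on average to libraries of their own number, though no correlation passed 0.1. The labels do not say what a number marks, so nothing is read from this count. Scaling by library totals moved the median over all genes by 0.11 (log2) for Xap5 KO against Nono KO, where 4721 genes were then called higher and 2624 lower in place of 3613 and 3458; 23 members were then higher and 22 lower. The lowest count of a member in a knockout library was 40; what depth alone limits was not tested.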
